A study of Mus musculus with 12 samples.

Results

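Cyclic nucleotide phosphodiesterases, the enzymes that break down cAMP and cGMP, were examined across 12 arrays of striatal tissue of both hemispheres from mouse embryos at embryonic day 18.5. The 10 members are Pde7a, Pde7b, Pde4b, Pde4d, Pde8b, Pde10a, Pde2a, Pde1a, Pde1b and Pde1c, each measured by 1 probe set among 25428. They were chosen by name, with the genotype differences of these same arrays known, among them the falls of Pde7b and Pde10a. Their genotype differences are therefore given as a description, without a p-value. The 6 wild-type samples (WT) and the 6 samples labelled Nestin-Cre (Foxp1-/-), called cKO here, were on the C57BL/6J background. All 12 are biological replicates by their titles. The labels name neither litter nor sex, nor pooling, nor the deleted part of Foxp1, and do not say whether WT embryos carried Cre. Nestin-Cre is known to act in neural progenitors throughout the nervous system, not in the striatum alone.

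Phosphodiesterases set how far and how long cAMP and cGMP spread after a cyclase has made them. The families differ in substrate and in control. Those numbered 4, 7 and 8 act on cAMP, 5, 6 and 9 on cGMP, and 1, 2, 3, 10 and 11 on both. Calcium with calmodulin activates family 1, and cGMP activates family 2. Projection neurons of the striatum hold Pde10a and Pde1b at high levels. In these neurons dopamine and adenosine receptors steer cAMP, and nitric oxide steers cGMP. Foxp1, a forkhead transcription factor, is abundant in the same neurons.

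All values are RMA log2 expression, for which the median probe set of an array lay at 5.71 and the lowest value at 5.21. All 10 members lay above the median probe set. Levels of different genes are not compared, since each probe set has its own response. The targeted gene, Foxp1, ran from 10.89 through a median of 11.15 to 11.39 in WT and from 10.14 through 10.22 to 10.36 in cKO. No cKO array reached the lowest WT array. Whether the probes lie in the deleted part is not known here. In this bulk tissue, fewer cells of a type and less RNA per cell cannot be told apart.

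Pde7b, a cAMP-specific enzyme, had the lower level in every cKO array. Its WT arrays ran from 9.82 through a median of 10.28 to 10.64. The cKO arrays ran from 9.02 through 9.14 to 9.26. The groups did not overlap, and the WT arrays were spread far more widely than the cKO arrays. Means were 10.26 ± 0.33 (SD, n = 6) and 9.15 ± 0.085 (SD, n = 6). The difference, cKO minus WT, was -1.11 ± 0.13 (SE, limma; 95% interval -1.40 to -0.83), which is 2.16-fold. Among the 109 probe sets that were lower in cKO at an adjusted p below 0.05, this was the fall ranked 2. Its paralogue Pde7a, also cAMP-specific, showed no such separation. WT arrays of Pde7a ran from 8.48 through 8.57 to 8.67 and cKO arrays from 8.47 through 8.54 to 8.68. The Pde7a groups overlapped almost fully, with a difference of -0.021 ± 0.044 (SE; 95% interval -0.12 to 0.075).

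Pde10a, which cleaves both messengers and is a hallmark of striatal projection neurons, was the other member whose fall passed the threshold. Its WT arrays ran from 9.33 through 9.64 to 9.91. Its cKO arrays ran from 8.87 through 9.07 to 9.13, all of them below the lowest WT array. The difference was -0.59 ± 0.085 (SE; 95% interval -0.77 to -0.40), or 1.5-fold. On the log2 scale the fall of Pde7b was 1.9 times that of Pde10a. Pde2a, the enzyme stimulated by cGMP, had overlapping groups. It ran from 9.77 through 9.87 to 10.17 in WT and from 9.53 through 9.75 to 9.94 in cKO. The Pde2a difference was -0.16 ± 0.078 (SE; 95% interval -0.33 to 0.0078).

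**Figure D1:**
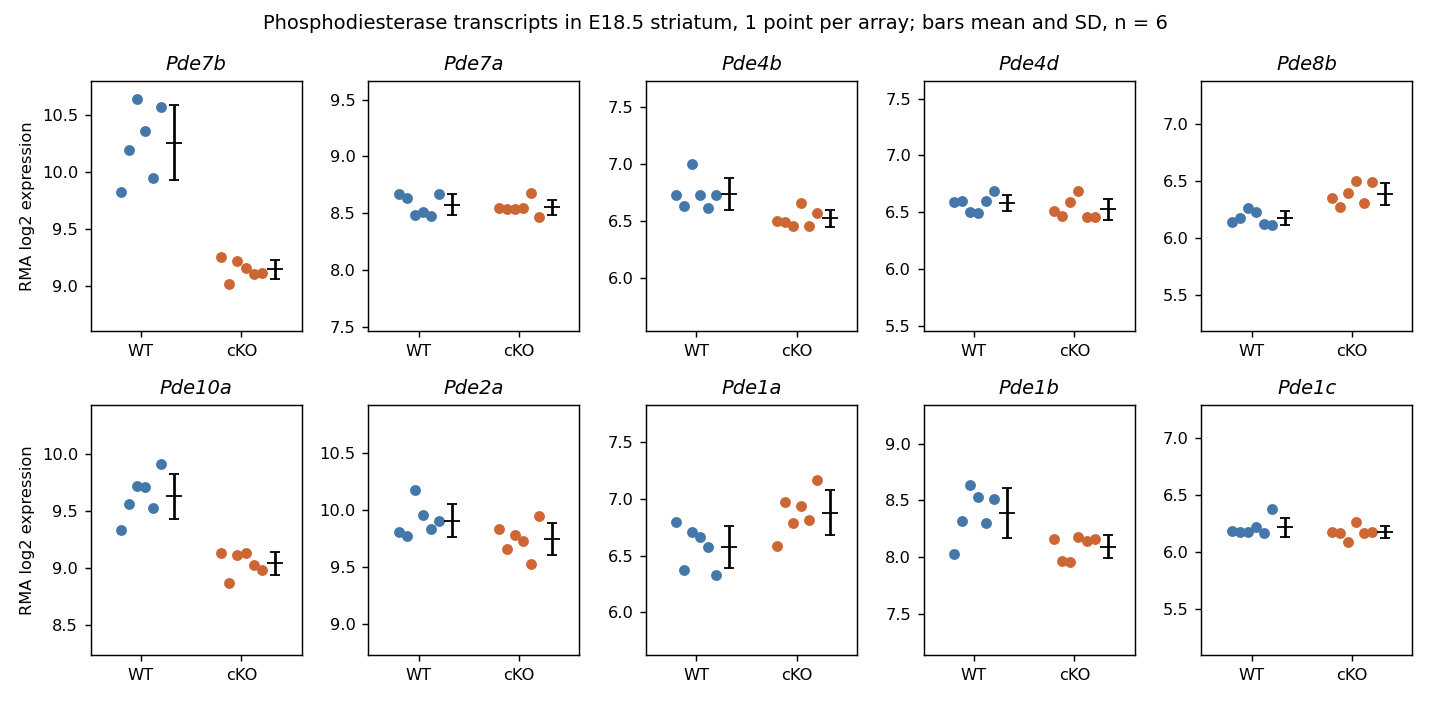
RMA log2 expression of the 10 members (vertical axes, all of the same width) in WT and cKO striatum, with 1 point per array and bars for mean and SD over 6 arrays. All cKO points lie below all WT points for Pde7b and Pde10a and above them for Pde8b, while the other 7 members overlap.

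The calmodulin-dependent members did not move together. Pde1b, the form typical of the striatum, ran from 8.03 through 8.41 to 8.64 in WT and from 7.96 through 8.15 to 8.18 in cKO. Only 2 cKO arrays lay below the lowest WT array, WT replicate 1. The difference of Pde1b was -0.29 ± 0.092 (SE; 95% interval -0.49 to -0.093). Pde1a, known mainly from cortex and hippocampus within the brain, had the opposite sign. It ran from 6.33 through 6.62 to 6.80 in WT and from 6.59 through 6.87 to 7.17 in cKO. Of the cKO arrays, 4 lay above the highest WT array, and the difference was 0.30 ± 0.10 (SE; 95% interval 0.077 to 0.53). Pde1c was nearly level, with a WT mean of 6.22 ± 0.081 (SD, n = 6) and a cKO mean of 6.17 ± 0.053 (SD, n = 6). The difference of Pde1c was -0.045 ± 0.038 (SE), and WT replicate 6 stood apart from the other WT arrays.

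The cAMP-specific members of families 4 and 8 differed little in size. Pde4b, an enzyme inhibited by rolipram, ran from 6.61 through 6.73 to 6.999 in WT and from 6.45 through 6.50 to 6.65 in cKO. Of the 6 cKO arrays 5 lay below the lowest WT array, and the difference was -0.22 ± 0.061 (SE; 95% interval -0.35 to -0.085). Pde4d, of the same family, had a difference of -0.053 ± 0.045 (SE; 95% interval -0.15 to 0.045). Its WT arrays ran from 6.50 through 6.59 to 6.69 and its cKO arrays from 6.46 through 6.49 to 6.69. Pde8b, a high-affinity cAMP enzyme, was higher in every cKO array. It ran from 6.12 through 6.16 to 6.26 in WT and from 6.27 through 6.38 to 6.50 in cKO. The Pde8b groups did not overlap, though the gap between them was narrow. The difference was 0.21 ± 0.043 (SE; 95% interval 0.12 to 0.31), or 1.16-fold.

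Of the 10 members, 2 passed an adjusted p of 0.05 over all probe sets, Pde7b and Pde10a, both lower in cKO. Over all probe sets 0.728% passed, 0.429% lower and 0.299% higher. Pde8b also passed without WT replicate 3 or without cKO replicate 2, and Pde1b without WT replicate 1. The groups did not overlap for 2 members that were lower in cKO, against 0.822% of all probe sets, and for 1 that was higher, against 0.562%. The median difference was -0.11 over the members and -0.00077 over all probe sets, and 8 of the 10 members had a difference below 0. Nothing is read from these shares, because the genotype contrast was known when the members were chosen.

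The 11 other catalytic phosphodiesterase genes were all measured, and none passed in limma, in either direction. At an unadjusted p below 0.05 there were also 0 of 11, against 10.7% of all probe sets. Their differences ran from -0.075 to 0.059, with a median of 0.011. The smallest p-values were those of Pde4a, a cAMP-specific enzyme, at -0.075 ± 0.041 (SE, limma adjusted p = 0.554), and of Pde5a, which is specific for cGMP, at 0.059 ± 0.034 (SE, adjusted p = 0.582). Only 5 of the 11 lay above the median probe set. The photoreceptor enzymes Pde6a, Pde6b and Pde6c were among those below it, where RMA values are compressed. Nothing is read from the count of 0 among the 11 genes. They are what was left when the members were chosen with the genotype contrast known.

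**Figure D2:**
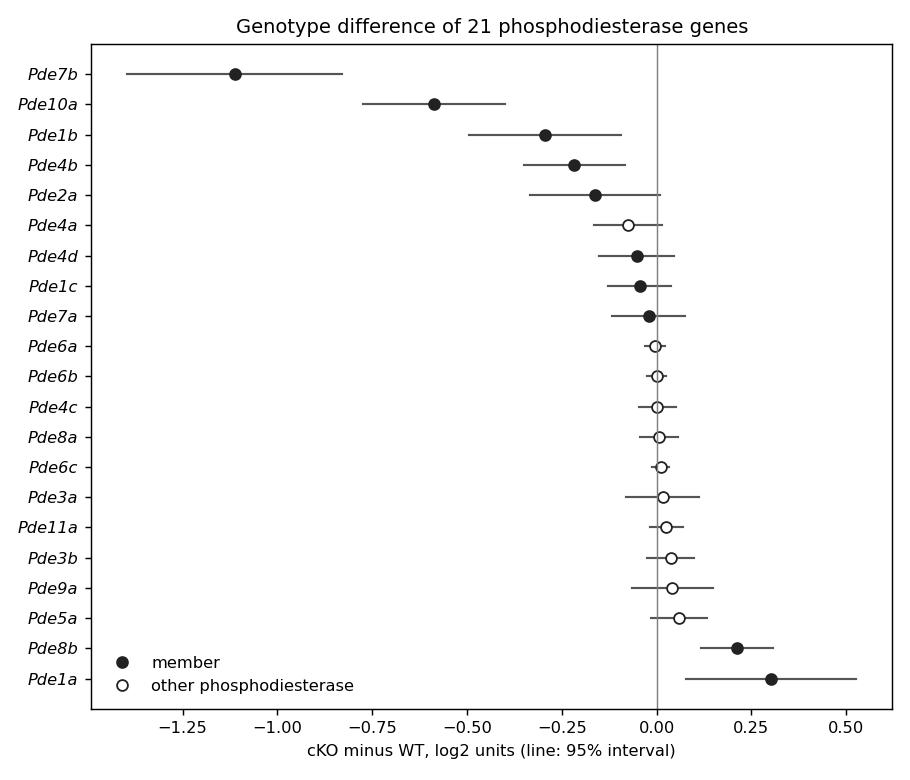
Difference in RMA log2 expression, cKO minus WT (horizontal axis), for 21 phosphodiesterase genes, with the 95% interval of limma as a line. Filled points are the 10 members and open points the 11 other genes. The open points lie between -0.075 and 0.059, Pde7b at -1.11 and Pde10a at -0.59. Members were chosen with these differences known.

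Variation between samples of 1 genotype was not used in choosing the members. Inside each genotype, arrays high in Pde7b were high in Pde10a. Within WT the Pearson r was 0.91 (two-sided exact permutation p = 0.0125, adjusted p = 0.0458 over 6 relations) and Spearman's rho was 0.94 (exact p = 0.0167, adjusted p = 0.100). Within cKO r was 0.91 (exact p = 0.0153, adjusted p = 0.0458) and rho 0.89 (exact p = 0.0333, adjusted p = 0.100). Without the 2 arrays farthest from the Pde7b median, r was 0.95 in WT and 0.77 in cKO. After leaving out any 1 array, 5 are left, and r stayed between 0.84 and 0.97 in WT and between 0.79 and 0.97 in cKO, with no adjusted p below 0.05. The same arrays order both genes, although all cKO arrays lay within a narrow range of each.

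The relations with Foxp1 did not pass. Foxp1 with Pde10a had r = 0.80 in WT (exact p = 0.0542, adjusted p = 0.108; rho = 0.77, exact p = 0.103, adjusted p = 0.204). In cKO it had r = 0.72 (exact p = 0.101, adjusted p = 0.122; rho = 0.71, exact p = 0.136, adjusted p = 0.204). Without the 2 arrays farthest from the Foxp1 median, r was 0.83 in WT and 0.40 in cKO. Foxp1 with Pde7b had r = 0.75 in WT (exact p = 0.0875, adjusted p = 0.122; rho = 0.60, exact p = 0.242, adjusted p = 0.290) and 0.39 in cKO (exact p = 0.463, adjusted p = 0.463; rho = 0.37, exact p = 0.497, adjusted p = 0.497). Without the 2 arrays these values were 0.62 and 0.14. The cKO arrays spanned only 10.14 to 10.36 in Foxp1.

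**Figure D3:**
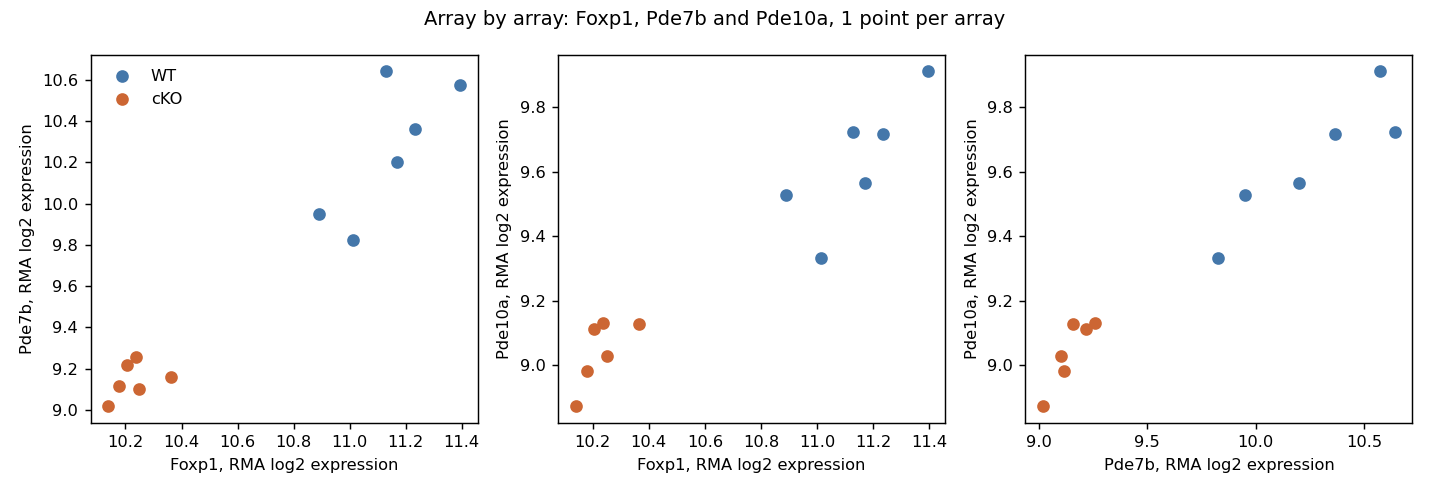
RMA log2 expression of Foxp1 against Pde7b and Pde10a, and of Pde7b against Pde10a, with 1 point per array for 6 WT and 6 cKO samples. The genotypes form separate clouds, and inside each cloud Pde10a follows Pde7b, with r = 0.91 in WT and 0.91 in cKO.

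Over all 12 arrays, with each genotype's mean removed, the members formed a loose structure, given here as a description. Of the 45 pairs of members, 29 had an r above 0, and the median was 0.29. An r above 0.7 was reached by 4 pairs. The trio of Pde7b, Pde10a and Pde1b gave 0.89, 0.84 and 0.78. The WT arrays weigh most in these values, since the SD of Pde1b was 0.22 in WT and 0.10 in cKO. Within cKO, replicate 2 was low in both Pde1b (7.96) and Pde7b (9.02). Replicate 3 had the lowest Pde1b (7.957) but a Pde7b of 9.22, near the cKO highest of 9.26. The relations of Pde1b were not tested inside each genotype. The remaining pair was Pde2a with Pde4b, at 0.70. Both genes were highest in WT replicate 3, at 10.17 and 6.999, and r without that array was not computed. Pde8b, whose genotype difference had the opposite sign to theirs, varied with Pde2a (0.67) and Pde4b (0.66). Pde7a ran against Pde2a (-0.68) and was unrelated to Pde7b (-0.12). Pde1a ran against Pde10a (-0.53). Foxp1 varied with Pde10a (0.79), Pde1c (0.77) and Pde7b (0.70). For Pde1c this leans on WT replicate 6, the highest array of both Foxp1 (11.39) and Pde1c (6.38). All pairs share the arrays and their normalization.

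**Figure D4:**
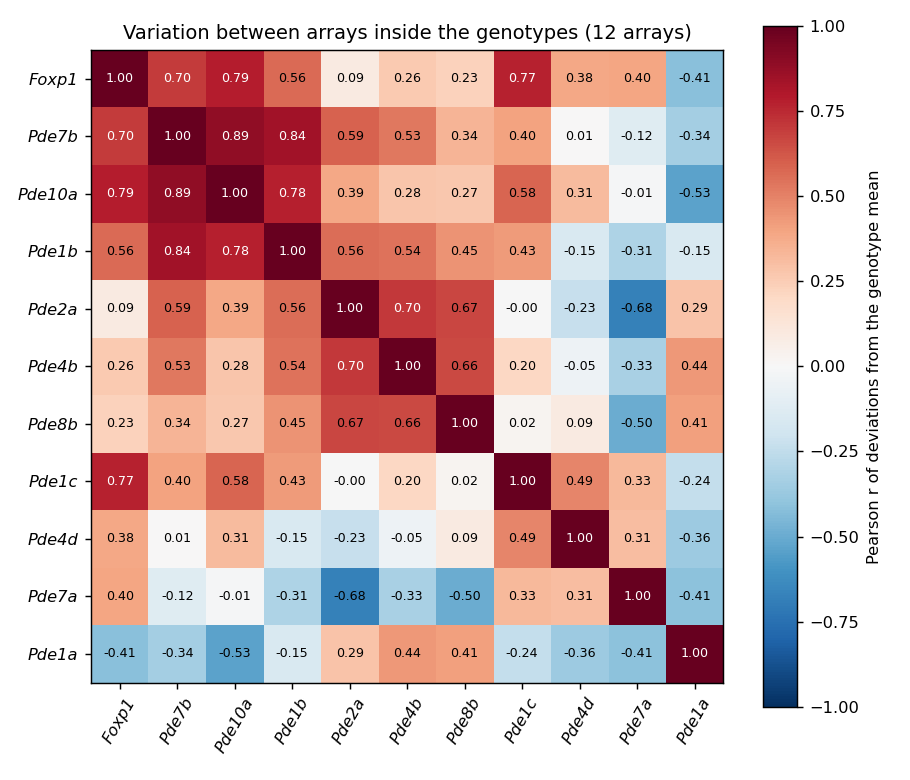
Pearson r (colour, and printed in each cell) between deviations from the genotype mean over 12 arrays, for Foxp1 and the 10 members. Pde7b, Pde10a and Pde1b form a block of 0.78 to 0.89, while Pde7a and Pde1a are mostly negative against the others.

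The spread of Pde7b was 3.86 times wider in WT than in cKO on the log2 scale. Among probe sets above the median level, 2.09% had a ratio at least as high, and the SD was larger in WT for 67.6%. It was larger in WT for 7 of the 10 members, which is near that share. The ratio was 2.09 for Pde1b, 1.94 for Pde10a and 0.633 for Pde8b.

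Among 20655 other probe sets with a symbol, predicted genes left out, the deviations most like those of Pde7b over the 12 arrays were those of Ssxb5 (r = 0.96, rho = 0.91), Foxc2 (0.94 and 0.97), Gnal (0.94 and 0.90), Trpc7 (0.93 and 0.88) and Vmn1r202 (0.92 and 0.88). Ssxb5, Foxc2 and Vmn1r202 had mean levels of 5.26, 5.49 and 5.34, below the median probe set, where a pattern rests on very small differences. Gnal encodes the G protein subunit that couples dopamine and adenosine receptors to adenylyl cyclase in the striatum. It ran from 9.95 to 10.69, and its own genotype difference was -0.37 (limma adjusted p = 0.0730). With only probe sets above the median level, a choice made after the values were seen, the leading genes were Gnal, Trpc7, Gpr6 (r = 0.92), Foxo1 (0.91) and Chst15 (0.91). For Gpr6 and Foxo1 this rested on WT, with r of 0.997 and 0.96 there against -0.14 and 0.12 within cKO. Pde10a held place 12 of the full ranking and Foxp1 place 266.

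For Pde10a the closest were Cerkl (r = 0.92, rho = 0.83), Tarm1 (0.90 and 0.90), Sap130 (0.90 and 0.81), Mir202 (0.90 and 0.78) and Foxc2 (0.90 and 0.92). Of these, only Sap130, a subunit of a histone deacetylase complex, lay above the median level, with a mean of 9.76. Above that level the list was Sap130, Prokr2 (0.89), Pde7b (0.89), Max (0.88) and Fcho1 (0.88). Pde7b was thus among the 5 closest to Pde10a at measurable levels. Its place in the full ranking was 7, and that of Foxp1 was 81.

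The sequences upstream of Pde7b, Pde10a and Pde1b are shown, the trio with the highest r over the pooled arrays of both genotypes. They are the 250 bases before each annotated start (RefSeq, GRCm38.p6), 5′ to 3′ on the strand of the gene. Capitals mark TGTTT, the core shared by forkhead sites, also where it lies on the other strand, and the 7 letters of a longer forkhead match. Of the 3 Pde1b starts, the window shown is the only one with such a match.
Pde7b, chr10:20548329-20548578 (- strand): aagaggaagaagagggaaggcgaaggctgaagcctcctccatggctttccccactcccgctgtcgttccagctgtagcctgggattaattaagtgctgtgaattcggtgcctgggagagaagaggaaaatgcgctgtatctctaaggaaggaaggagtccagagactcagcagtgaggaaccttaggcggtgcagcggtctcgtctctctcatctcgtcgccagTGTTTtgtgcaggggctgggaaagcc
Pde10a, upstream start, chr17:8801495-8801744 (+ strand): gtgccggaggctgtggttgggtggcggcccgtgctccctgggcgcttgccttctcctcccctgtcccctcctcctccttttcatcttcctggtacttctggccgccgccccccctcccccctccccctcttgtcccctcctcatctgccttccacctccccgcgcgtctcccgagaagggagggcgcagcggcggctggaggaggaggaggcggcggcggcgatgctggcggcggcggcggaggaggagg
Pde10a, downstream start, chr17:8849735-8849984 (+ strand): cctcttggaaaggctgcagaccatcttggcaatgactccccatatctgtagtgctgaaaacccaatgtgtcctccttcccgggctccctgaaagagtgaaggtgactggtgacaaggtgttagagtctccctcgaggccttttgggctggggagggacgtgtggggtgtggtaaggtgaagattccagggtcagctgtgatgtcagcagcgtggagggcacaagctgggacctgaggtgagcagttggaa
Pde1b, middle start, chr15:103506876-103507125 (+ strand): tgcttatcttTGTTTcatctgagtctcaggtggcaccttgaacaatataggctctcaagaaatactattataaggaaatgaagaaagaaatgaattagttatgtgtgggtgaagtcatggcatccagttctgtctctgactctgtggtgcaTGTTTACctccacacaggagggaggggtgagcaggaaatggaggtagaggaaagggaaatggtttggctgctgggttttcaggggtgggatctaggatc

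Forkhead sites were searched on both strands as 4 heptamers, each given with its share of all windows. The first and second of them contain TGTTT and so overlap its matches. Windows were held for 9 members, 28 in all, and Pde7a was not among them. TGTTTAC was found in 2 of the 28 windows, that of Pde1b, from 99 to 93 bases before the start, and 1 of Pde1c, against 3.17% of all 32851 windows. TGTTTAT was in 3 of the 28, of Pde1a, Pde4b and Pde4d, against 4.16% of all windows. TATTTAT was in 1 window of Pde4b (5.17% of all windows) and TATTTGT in none of the 28 (3.29%). Counted by window, 5 of the 28 held at least 1 of the heptamers, against 4595 of all 32851 windows. Counted by gene, 5 of the 9 members did so in some window, against 15.9% of all 27025 genes. The count by gene is not like for like, because the 9 members had 28 windows, up to 5 for a member. All 27025 genes together had 32851 windows, so nothing is read from the count by gene. Neither the Pde7b window nor either Pde10a window held any of the 4 heptamers. The bare TGTTT was in 19 of the 28 windows, against 46.4% of all windows. Windows of Pde8b overlap and share the same match, so windows are not separate counts and nothing is read from the 19. Pde7b held the bare TGTTT from 26 to 22 bases before its start. The cAMP response element TGACGTCA, in 1.55% of all windows, was in none of the 28, and its shorter form TGACG, which lies within it, was in 2 of the 28, of Pde1a and Pde4b (17.8% of all windows). The upstream Pde10a window was 72.8% G and C and the Pde7b window 55.2%, where the median window had 52.4%. A match in these windows is a run of letters, and no binding was measured.

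The wider pathway was described with 8 lists of 71 genes, of which 68 were measured, the 11 other phosphodiesterases among them. In limma 1 of the 68 fell and 0 rose, where 0.429% of all probe sets were lower and 0.299% higher. At an unadjusted p below 0.05 there were 10 lower and 0 higher, where 10.7% of all probe sets lay in either direction. That share was not split by direction, so nothing is read from the 10 against 0. The gene that fell was Gucy1a1, a subunit of the nitric oxide receptor that makes cGMP. It ran from 11.19 through 11.47 to 11.58 in WT and from 10.96 through 11.05 to 11.13 in cKO, without overlap. Its difference was -0.38 ± 0.061 (SE, adjusted p = 0.0152). The call did not hold in every setting. Of the settings added after the data were seen, it was lost with cortical markers as a covariate, at an adjusted p of 0.0743, and when WT replicates 3 and 6 were both left out, at 0.0550. Its partner subunit Gucy1b1 had a value of -0.25 ± 0.067 (SE, adjusted p = 0.140), and 5 of 6 cKO arrays lay below the lowest WT array. The median over the 11 guanylyl cyclases was -0.013, and 4 of the 11 lay above the median probe set.

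Among the 10 adenylyl cyclases, which make cAMP, 0 passed and the median was -0.0032. Adcy1, activated by calcium with calmodulin, had a value of -0.31 ± 0.072 (SE, limma adjusted p = 0.0929) with no overlap between the groups, and Adcy9 one of -0.099 ± 0.043 (SE, adjusted p = 0.420). Of 8 kinase subunits that bind or respond to cyclic nucleotides 0 passed, with a median of 0.028 and the smallest p-values for Prkg2 (-0.018, adjusted p = 0.668) and Prkar1a (-0.059, adjusted p = 0.733). Of 10 kinase inhibitors and substrates 0 passed and the median was 0.010. Ppp1r1b, the DARPP-32 gene, had a value of -0.48 ± 0.11 (SE, adjusted p = 0.0718), which passed without WT replicate 1. Arpp21, another striatal substrate, had one of -0.37 ± 0.090 (SE, adjusted p = 0.102). Adcy1, Ppp1r1b and Arpp21 all passed with dim probe sets left out and with a trended robust prior.

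No target of the messengers outside the kinases passed. Of 8 measured effectors 0 passed, with a median of -0.011. The channel genes Hcn4 (-0.19 ± 0.039, SE, limma adjusted p = 0.0516) and Hcn2 (-0.071, adjusted p = 0.481) had the smallest p-values, and Hcn4 passed without WT replicate 3 or cKO replicate 4, and also with cyclic loess, array weights or dim probe sets left out. Of 8 anchoring proteins, which place the kinase beside phosphodiesterases, 0 passed and the median was -0.049, with Akap12 at -0.21 ± 0.057 (SE, adjusted p = 0.163) and Akap1 at -0.10 (adjusted p = 0.404). The calmodulin genes Calm2 (-0.0092, adjusted p = 0.976) and Calm3 (-0.053, adjusted p = 0.756) did not pass.

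Marker lists were set beside these results. Of 15 projection neuron markers, phosphodiesterases left out, 13 were measured and 0 passed in either direction. At an unadjusted p below 0.05, 6 were lower and 2 higher, where 10.7% of all probe sets lay in either direction. That share was not split by direction. Penk, the enkephalin gene, had a value of 0.38 ± 0.077 (SE, adjusted p = 0.0501), with 5 cKO arrays above every WT array. Rarb, a retinoic acid receptor gene, had one of -0.52 ± 0.11 (SE, adjusted p = 0.0522), with 5 cKO arrays below every WT array. Of the 13 differences 8 lay below 0. The mean level of the 13 lay between 9.20 and 9.48 over WT arrays and between 9.10 and 9.27 over cKO arrays. Within the genotypes Pde7b varied with this mean, a relation examined after the values were seen as part of a family of 4. In cKO r was 0.97 (exact p = 0.00139, the smallest that 6 arrays allow, adjusted p = 0.00556) with rho = 1.0 (exact p = 0.00278, adjusted p = 0.0111), and r was 0.97 without the 2 outermost arrays. In WT r was 0.91 (exact p = 0.0250, adjusted p = 0.05) with rho = 0.83 (exact p = 0.0583, adjusted p = 0.0778), and r was 0.50 without the 2 outermost arrays, so that it rests on them. The part of this marker level in the Pde7b difference was not tested.

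Of 8 cortical neuron markers 6 were measured, none passed in limma, 2 were higher at an unadjusted p below 0.05, and all 6 had a difference above 0. Their mean level lay between 6.03 and 6.39 over WT arrays and between 5.99 and 6.78 over cKO arrays. The markers with the smallest p were Neurod6 (0.51 ± 0.21, SE, adjusted p = 0.408), Neurod2 (0.41 ± 0.175, SE, adjusted p = 0.410) and Tbr1 (0.34 ± 0.20, SE, adjusted p = 0.587), transcription factors of cortical excitatory neurons. In each of these 3 genes 4 cKO arrays lay above every WT array. Fezf2, with a WT mean of 6.26, had a difference of only 0.032 ± 0.20 (SE, adjusted p = 0.974). Its cKO arrays spread to both sides, 2 below every WT array and 3 above. Slc17a7 and Emx1 averaged 5.57 and 5.47 in WT, near the floor, and Slc17a7 reached 5.95 in cKO replicate 6. Pde1a varied with this mean in cKO, with r = 0.81 (exact p = 0.0431, adjusted p = 0.0574) and rho = 0.94 (exact p = 0.0167, adjusted p = 0.0333), and r was 0.93 without the 2 outermost arrays. In WT r was -0.66 (exact p = 0.147, adjusted p = 0.147) with rho = -0.77 (exact p = 0.103, adjusted p = 0.103), and 0.061 without the 2 outermost arrays. With the cortical mean as a covariate the Pde1a difference was 0.24 ± 0.11 (SE), that of Pde7b -1.06 ± 0.15 (SE) and that of Pde10a -0.56 ± 0.099 (SE). Of 6 interneuron markers 1 rose, Maf (0.57, limma adjusted p = 0.0150), and 1 fell, Cxcr4 (-0.42, adjusted p = 0.0341), with 2 of the 6 differences below 0. Of 6 markers of dividing cells 1 rose, Aurkb (0.22, limma adjusted p = 0.0303). All 6 had a difference above 0, with a median of 0.15. Over all probe sets 0.299% passed as higher and 0.429% as lower. In the lists of astrocytes and radial glia, the oligodendrocyte lineage, microglia and endothelial cells 0 genes passed, with 0, 1, 1 and 1 at an unadjusted p below 0.05.

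**Figure D5:**
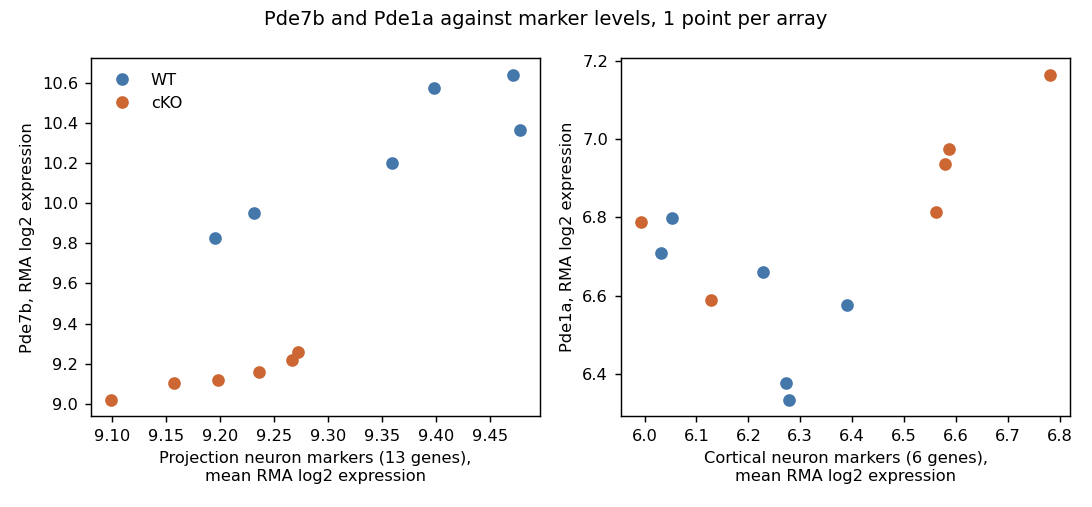
RMA log2 expression of Pde7b against the mean of 13 projection neuron markers, and of Pde1a against the mean of 6 cortical neuron markers, with 1 point per array. Pde7b follows the first mean within cKO (r = 0.97), while the r of 0.91 within WT rests on 2 arrays and is 0.50 without them. The 4 cKO arrays with the highest cortical means are those in which Pde1a exceeds every WT array. Within WT the r of Pde1a with the cortical mean is -0.66, and 0.061 without the 2 outermost arrays.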

How the data were processed

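Total RNA of dissected striata was labelled with biotin and hybridised to 1-colour arrays, per the labels. The authors deposited log2 values made with RMA, a method their processing notes name without a version. RMA corrects background, puts all arrays on a shared distribution and summarises probes, so a change common to all genes is not visible. The number of arrays limits the precision. Array software and scan batches are not given in the sources used here.

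Of 25428 probe sets, 24674 carried 1 symbol from the platform annotation, updated by gene identifier through RefSeq (GRCm38.p6), 0 several and 754 none. The genotypes were tested by limma 3.58.1 under R 4.3.3 (lmFit, eBayes, two-sided) over all probe sets and 12 arrays without covariates, with Benjamini-Hochberg adjustment and a threshold of 0.05. The code was tested on simulated data. Each limma p-value sets the genotype difference against the spread between these samples, whose litters and pooling are not given. Relations within a genotype used exact permutation over 720 pairings of 6 arrays (smallest possible p 0.00139 to 0.00278).

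Members and lists were chosen with earlier results of these data known. Named are all members, of each pathway list the genes past the threshold or, where none passed, the 2 with the smallest p, of each marker list those past the threshold, and the 5 closest to Pde7b and Pde10a. Other genes were named after their values were seen. Alternatives were cyclic loess, median centring, omission of dim probe sets, a robust prior with a trend, weighted arrays, the replicate block, a Y-linked covariate from 3 genes and leaving out each array. The cortical covariate, leaving out WT replicates 3 and 6 (lowest array weights), the level filter on the rankings and the marker relations were added after the data were seen.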

Additional observations from a re-analysis of the deposited data

Results flagged for a closer look

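Arrays standing apart from the rest of their group were looked for in 26 groups of values, those of the 10 members, Foxp1 and the 2 marker means in each genotype. Chance gives such an array in about 1 of 20 groups, and 2 were found. Pde1c read 6.38 in WT replicate 6, where the next WT array read 6.22. Pde4b read 6.999 in WT replicate 3, where the next read 6.73. These are the 2 arrays with the lowest array weights. Without both, the differences were -0.014 ± 0.027 (SE) for Pde1c and -0.16 ± 0.043 (SE) for Pde4b.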

How the results depend on the processing

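The differences of all 10 members kept their sign and moved by less than the spread between replicates in all 21 alternatives. That of Pde7b ran from -1.20 to -0.94, that of Pde10a from -0.65 to -0.49, that of Pde8b from 0.19 to 0.23 and that of Pde1a from 0.24 to 0.36. Pde7b passed the threshold in 21 of 21 alternatives, Pde10a in 20, Pde8b in 5 and Pde1b in 1. Besides the 2 arrays named above for Pde8b, it passed with cyclic loess, with dim probe sets left out and with a trended robust prior. Replicate numbers did not pair the samples, since deviations of same-numbered samples correlated between -0.22 and 0.15. Under the replicate block 1 member passed, Pde7b, and 0 pathway genes did, with Gucy1a1 at an adjusted p of 0.104, while 64 probe sets passed in all. Over all probe sets the count was 185. It was 278 with dim probe sets left out, 99 with the cortical covariate, and 106 to 227 when 1 array was left out, with 106, 117 and 109 without cKO replicates 2, 3 and 5. Pathway genes past the threshold numbered 5 with dim probe sets left out, 4 with the trended robust prior, 2 with cyclic loess or array weights, 1 to 2 when 1 array was left out, and 0 with the cortical covariate or without WT replicates 3 and 6. Leaving out 1 array moved r of Pde7b with Pde10a between 0.84 and 0.97 in WT and between 0.79 and 0.97 in cKO, and its adjusted p missed 0.05, with 5 arrays left. It moved r of Foxp1 with Pde7b in cKO between -0.047 and 0.63, the sign turning without cKO replicate 2. The causes were not tested. No other background correction could be tried on summarised values, and changes of genes near the floor are compressed.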
